A study of Mus musculus with 24 samples.

Results

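Proliferation genes were followed in quadriceps muscle to ask whether cell division was still reflected in the RNA 21 days after injury. The genes were chosen by name, as 45 genes that work in DNA replication, mitosis and cytokinesis, and 44 of them were among the 14159 named genes of the expression table. Bub1 is not analysed here. The muscles came from C57BL/6 (B6) mice, a common inbred strain, and from MRL/MpJ (MRL) mice, an inbred strain studied for its wound healing. Per the study's methods, all mice were female and 6 to 8 weeks old at surgery, and the labels name no engineered allele in either strain. Each strain had 4 groups of 3 libraries, and each library was made from a whole quadriceps. One group was uninjured. The other groups had volumetric muscle loss, in which a piece of the quadriceps was cut out, and the defect received saline, a decellularized extracellular matrix (ECM) or polyethylene (PE) particles. Injured muscle was taken at day 21. Levels are given as log2 CPM (counts scaled to library size), on which a step of 1 is a doubling, and differences as log2 fold changes (log2FC) with their standard error (SE).

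A dividing cell passes through S phase, in which DNA is copied, and then through mitosis and cytokinesis, in which chromosomes and cytoplasm are parted. E2F factors switch on the genes of S phase, and the DREAM and MYB-FOXM1 complexes govern the later mitotic genes through short promoter motifs. Adult muscle fibres do not divide. After injury, satellite cells divide to replace fibres, and immune cells, fibroblasts and endothelial cells can divide as well. The libraries are of bulk tissue, so more dividing cells and more RNA per dividing cell cannot be told apart.

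Promoter sequence was not used to choose the genes. The promoters printed here belong to genes that rose in PE-treated B6 mice, and were picked because they hold motifs and cover roles from S phase entry to cytokinesis. Each is 250 bases before the start of the Ensembl canonical transcript on GRCm39, read 5′ to 3′ in the direction of the gene. Capitals mark CCAAT, the cell cycle homology region TTTGAA, and the E2F motifs TTTCCCGC, TTTCGCGC, TTTGCCGC and TTTGGCGC, on either strand.
E2f1, the S phase transcription factor, chr2:154411813-154412062, strand -: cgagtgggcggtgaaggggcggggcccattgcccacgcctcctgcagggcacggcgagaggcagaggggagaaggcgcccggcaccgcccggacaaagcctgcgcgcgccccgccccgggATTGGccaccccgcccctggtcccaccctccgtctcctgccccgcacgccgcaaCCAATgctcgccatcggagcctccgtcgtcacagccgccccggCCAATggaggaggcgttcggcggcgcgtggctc
Mcm6, a subunit of the replication helicase, chr1:128287453-128287702, strand -: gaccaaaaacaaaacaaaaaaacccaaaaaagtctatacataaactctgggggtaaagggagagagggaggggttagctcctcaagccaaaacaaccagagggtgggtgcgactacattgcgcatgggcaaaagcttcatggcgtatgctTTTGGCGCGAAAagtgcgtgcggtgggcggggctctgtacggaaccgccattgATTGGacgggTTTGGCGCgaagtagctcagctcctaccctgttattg
Cdk1, the mitotic kinase, chr10:69188769-69189018, strand -: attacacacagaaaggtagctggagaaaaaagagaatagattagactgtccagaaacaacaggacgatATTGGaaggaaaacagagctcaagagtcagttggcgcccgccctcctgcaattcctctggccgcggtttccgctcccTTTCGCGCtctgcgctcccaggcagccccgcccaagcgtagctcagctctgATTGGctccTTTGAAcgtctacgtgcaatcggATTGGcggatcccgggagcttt
Top2a, the topoisomerase that untangles chromosomes, chr11:98915042-98915291, strand -: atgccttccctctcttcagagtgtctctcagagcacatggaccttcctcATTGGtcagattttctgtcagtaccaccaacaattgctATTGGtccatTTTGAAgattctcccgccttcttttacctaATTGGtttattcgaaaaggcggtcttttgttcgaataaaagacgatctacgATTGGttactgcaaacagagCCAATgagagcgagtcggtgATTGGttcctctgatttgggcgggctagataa
Kif23, a motor of the central spindle, chr9:61854074-61854323, strand -: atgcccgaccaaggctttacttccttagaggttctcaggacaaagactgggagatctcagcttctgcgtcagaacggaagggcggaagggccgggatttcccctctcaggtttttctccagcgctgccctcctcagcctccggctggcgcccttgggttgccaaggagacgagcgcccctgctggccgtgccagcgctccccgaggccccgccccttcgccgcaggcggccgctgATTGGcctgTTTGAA
CCAAT was present in 25 of the 44 promoters, or 56.8%, against 36.5% of 21770 protein-coding promoters of the same length. TTTGAA was present in 10, or 22.7%, against 15.6%, and both motifs together in 8, or 18.2%, against 6.06%. One of the E2F motifs was present in 4, or 9.09%, against 2.28%. In Mcm6 a pair of E2F motifs overlap each other. None of these motifs was found in 17 of the 44 promoters, among them those of Mki67, Ccnb1 and Aurka, nor in 4 of the 12 genes that rose, namely Pcna, Tyms, Plk1 and Birc5. In the nearest 100 bases, CCAAT was found in 21 member promoters (47.7%, against 21.9%), TTTGAA in 3 (6.82%, against 4.57%) and an E2F motif in 2 (4.55%, against 1.05%). These matches are descriptions of the letters.

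The libraries did not all follow their groups. The second library of PE-treated MRL mice stood apart: it held the highest of the 24 values for 25 of the 44 genes, and its summed level over them was 457 CPM, against 170 and 192 CPM in the other libraries of that group. Its correlation across genes was 0.812 and 0.827 with those libraries and 0.934 with the second library of PE-treated B6 mice. Of 122 genes that separated the strains, 19 (15.6%) lay on the B6 side in this library. Results that rest on it are given with and without it. Summed over the 44 genes, levels were 181 to 208 CPM in uninjured B6 mice, 177 to 249 CPM after saline, 218 to 232 CPM after ECM and 268 to 455 CPM after PE. In uninjured MRL mice they were 185 to 198 CPM, after saline 175 to 218 CPM and after ECM 198 to 204 CPM. Abundant genes weigh most in a sum: Rrm1 and Pcna were 50.2 and 27.9 of 198 CPM in the first uninjured B6 library. In log2 CPM, the median over the 44 genes was 0.16 to 0.46 in uninjured MRL mice. It was 0.69 to 1.25 after saline, 0.81 to 1.19 after ECM and 0.48, 2.78 and 1.25 after PE. In B6 mice it was 0.67 to 1.16 uninjured, 0.45 to 1.54 after saline, 1.35 to 1.45 after ECM and 1.42 to 2.51 after PE.

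**Figure D1:**
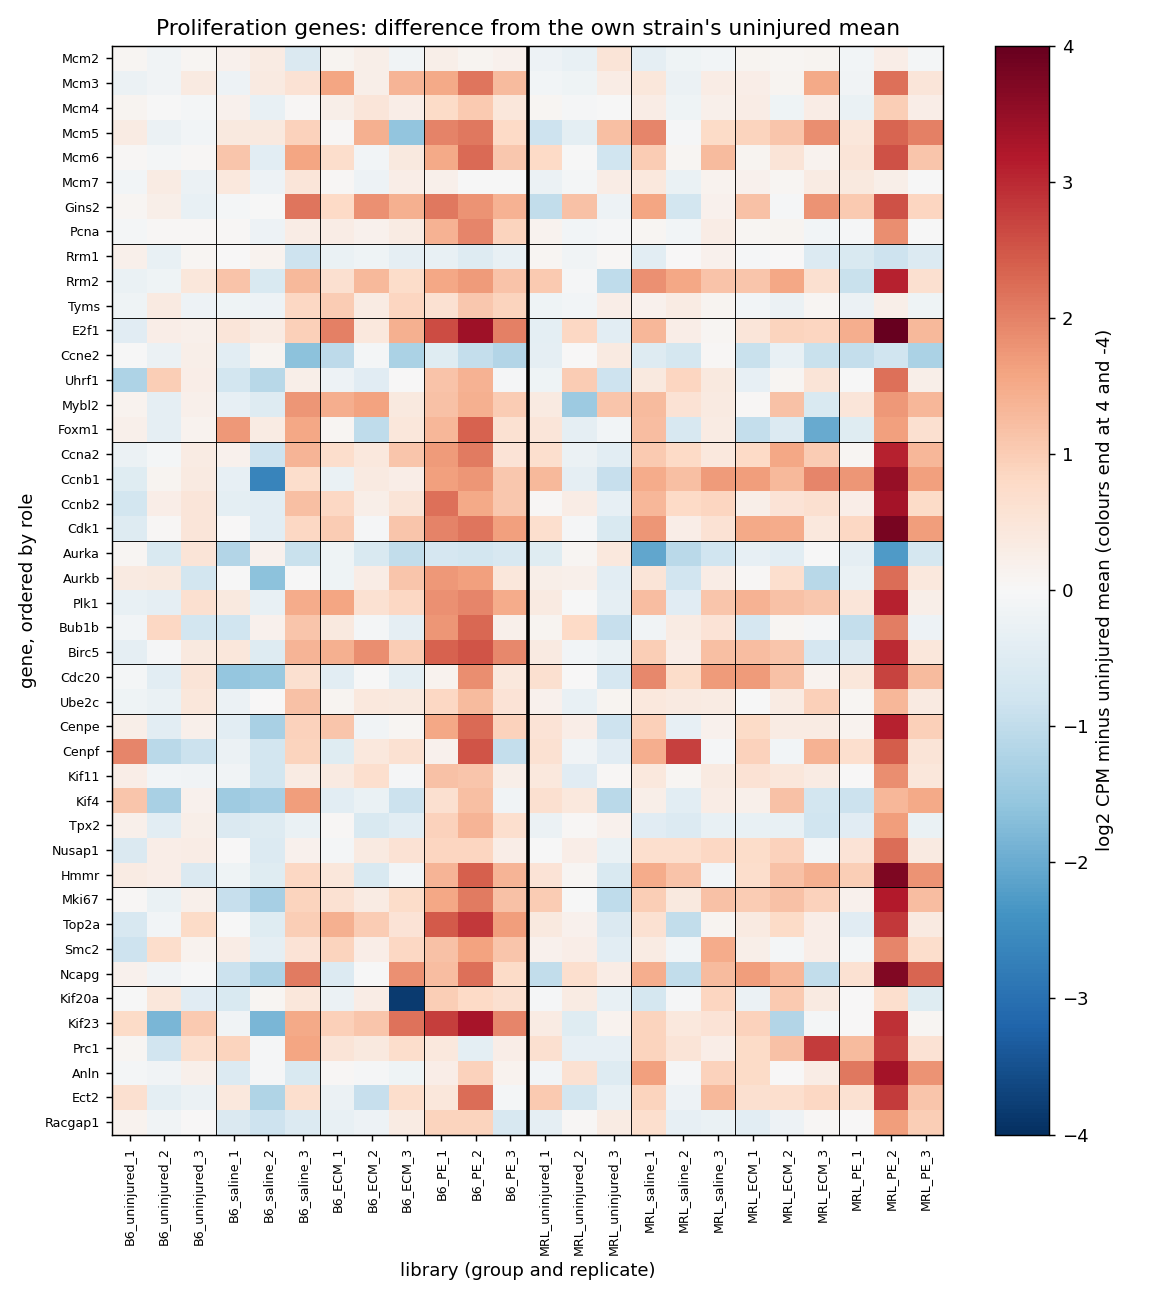
Colours show log2 CPM minus the mean of the same strain's uninjured libraries for each of the 44 genes (rows, ordered by role) in each of the 24 libraries (columns). PE-treated B6 libraries and the second PE-treated MRL library were red over most rows, and Aurka, Rrm1 and Ccne2 were blue in those columns.

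In B6 mice, 12 of the 44 genes (27.3%) rose after PE against uninjured muscle, none was called lower, and the median log2FC was 1.28, where the median over all genes was 0.02. In the same comparison 24.8% of all genes were called at an adjusted p under 0.05, and 14.7% were called higher, so the share of members called was near that of all genes and the share called higher was above it. The fold change was above 0 for 41 of the 44 genes. All PE-treated B6 libraries lay above all uninjured ones for 29 of the 44 genes, which held for 27% of all genes. When the library of PE-treated MRL mice that stood apart was left out of the shared estimate of spread, 21 genes were called. That fit raised counts in other lists too. Of 91 other cell cycle genes, listed below, 44% were called where it had been 26.4%, and of 5 adipocyte markers 5 where it had been 1. Its share of all genes called is not given here. When the second PE-treated B6 library was left out, 0 members were called with a median log2FC of 0.99. The count was 5 without the first PE-treated B6 library, and 2, 5 and 7 without the first, the second and the third uninjured one.

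Among genes of S phase entry, E2f1, which drives transcription of replication genes, rose most. It was 0.37, 1.08 and 1.02 log2 CPM in uninjured B6 libraries and 3.44, 4.21 and 2.85 log2 CPM after PE. The groups did not overlap. The log2FC was 2.68 (SE 0.59, adjusted p = 0.00648 by limma). Uhrf1, Mybl2 and Foxm1 had log2FC of 0.82, 1.21 and 1.43 and did not pass the test. Ccne2, a cyclin of S phase entry, had a log2FC of -0.87 with an adjusted p of 0.0923 (limma).

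Of the 8 genes of the replication helicase and clamp, 4 rose. Pcna, the sliding clamp of the DNA polymerases, was 4.81, 4.91 and 4.91 log2 CPM in uninjured B6 libraries and 6.26, 6.84 and 5.77 log2 CPM after PE. Every PE library was above every other B6 library. Its log2FC was 1.41 (SE 0.35, adjusted p = 0.0104 by limma). Of the helicase subunits, Mcm3 rose by a log2FC of 1.64, Mcm6 by 1.62 and Mcm4 by 0.76. Mcm2, at 3.72, 3.50 and 3.73 log2 CPM in uninjured and 3.89, 3.76 and 3.83 log2 CPM in PE-treated libraries, and Mcm7 had log2FC of 0.18 and 0.05. Mcm5 and Gins2, at 1.63 and 1.75, did not pass the test.

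The nucleotide enzymes were mixed. Tyms, which makes thymidylate, rose by a log2FC of 0.86 (SE 0.27). Rrm2, the cell-cycle-regulated subunit of ribonucleotide reductase, was 0.78, 0.86 and 1.49 log2 CPM in uninjured and 2.59, 2.74 and 2.19 log2 CPM in PE-treated B6 libraries. The groups did not overlap, but the log2FC of 1.46 had an adjusted p of 0.126 (limma). Rrm1, the other subunit, had a log2FC of -0.37, which became 0.04 when libraries were scaled to equal totals.

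Of the mitotic cyclins and their kinase, Cdk1 rose. Its values were -0.74, -0.18 and 0.28 log2 CPM in uninjured B6 libraries and 1.77, 1.94 and 1.44 log2 CPM after PE, with a log2FC of 1.93 (SE 0.62, adjusted p = 0.0318 by limma). Ccnb1, the cyclin that activates it, was -0.92, -0.31 and -0.07 log2 CPM in uninjured and 1.21, 1.33 and 0.65 log2 CPM in PE-treated libraries. These groups did not overlap either, but the log2FC of 1.49 had an adjusted p of 0.109 (limma). Ccna2 and Ccnb2 had log2FC of 1.44 and 1.60.

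Plk1, a kinase of mitotic entry, rose by a log2FC of 1.76, and Birc5, a subunit of the chromosomal passenger complex, by 2.27. Birc5 was -0.17, 0.15 and 0.59 log2 CPM in uninjured and 2.54, 2.70 and 2.12 log2 CPM in PE-treated B6 libraries. Aurkb, the kinase of that complex, was 0.05, 0.07 and -1.04 log2 CPM in uninjured and 1.44, 1.32 and 0.15 log2 CPM after PE, all above uninjured muscle, with an adjusted p of 0.146 (limma). Bub1b, of the spindle checkpoint, had a log2FC of 1.41. Aurka, the spindle pole kinase, had a log2FC of -0.67 and was not called. The partners of the anaphase-promoting complex, Cdc20 and Ube2c, had log2FC of 0.80 and 0.88 and were not called.

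Of 7 kinetochore and spindle genes, Hmmr rose, by a log2FC of 1.71 (SE 0.60). Kif11, a motor that pushes spindle poles apart, was 1.04, 0.68 and 0.64 log2 CPM in uninjured and 1.96, 1.90 and 1.02 log2 CPM in PE-treated B6 libraries. One PE library lay within the uninjured range, and the log2FC of 0.84 was not called. Cenpe, Tpx2, Nusap1, Cenpf and Kif4 had log2FC of 1.58, 0.98, 0.65, 0.57 and 0.57.

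Top2a rose among the genes of chromosome structure. It was 0.70, 1.23 and 2.10 log2 CPM in uninjured B6 libraries and 3.80, 4.18 and 3.01 log2 CPM after PE, with a log2FC of 2.32 (SE 0.64, adjusted p = 0.0168 by limma). Mki67, which coats mitotic chromosomes and is the usual stain for dividing cells, was 2.16, 1.85 and 2.31 log2 CPM in uninjured and 3.65, 4.18 and 3.27 log2 CPM in PE-treated libraries. The groups were apart, yet the log2FC of 1.59 (SE 0.61) missed the threshold at an adjusted p of 0.0625 (limma). The adjusted p was 0.0193 (limma) without the second PE-treated MRL library, an exclusion chosen after seeing the data. Without the second PE-treated B6 library Mki67 was not called. The condensin genes Smc2 and Ncapg had log2FC of 1.29 and 1.40.

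Of 6 genes of the central spindle and cytokinesis, Kif23 rose. It was -1.04, -3.65 and -0.77 log2 CPM in uninjured and 0.94, 1.49 and 0.12 log2 CPM in PE-treated B6 libraries. The value of -3.65 stands for a count of 0, so the log2FC of 2.67 depends on the prior count. Anln, which scaffolds the contractile ring, was 1.55, 1.47 and 1.83 log2 CPM in uninjured and 1.87, 2.53 and 1.77 log2 CPM after PE, with a log2FC of 0.44. Prc1, Ect2, Racgap1 and Kif20a had log2FC of 0.09, 0.87, 0.37 and 0.80 and were not called.

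**Figure D2:**
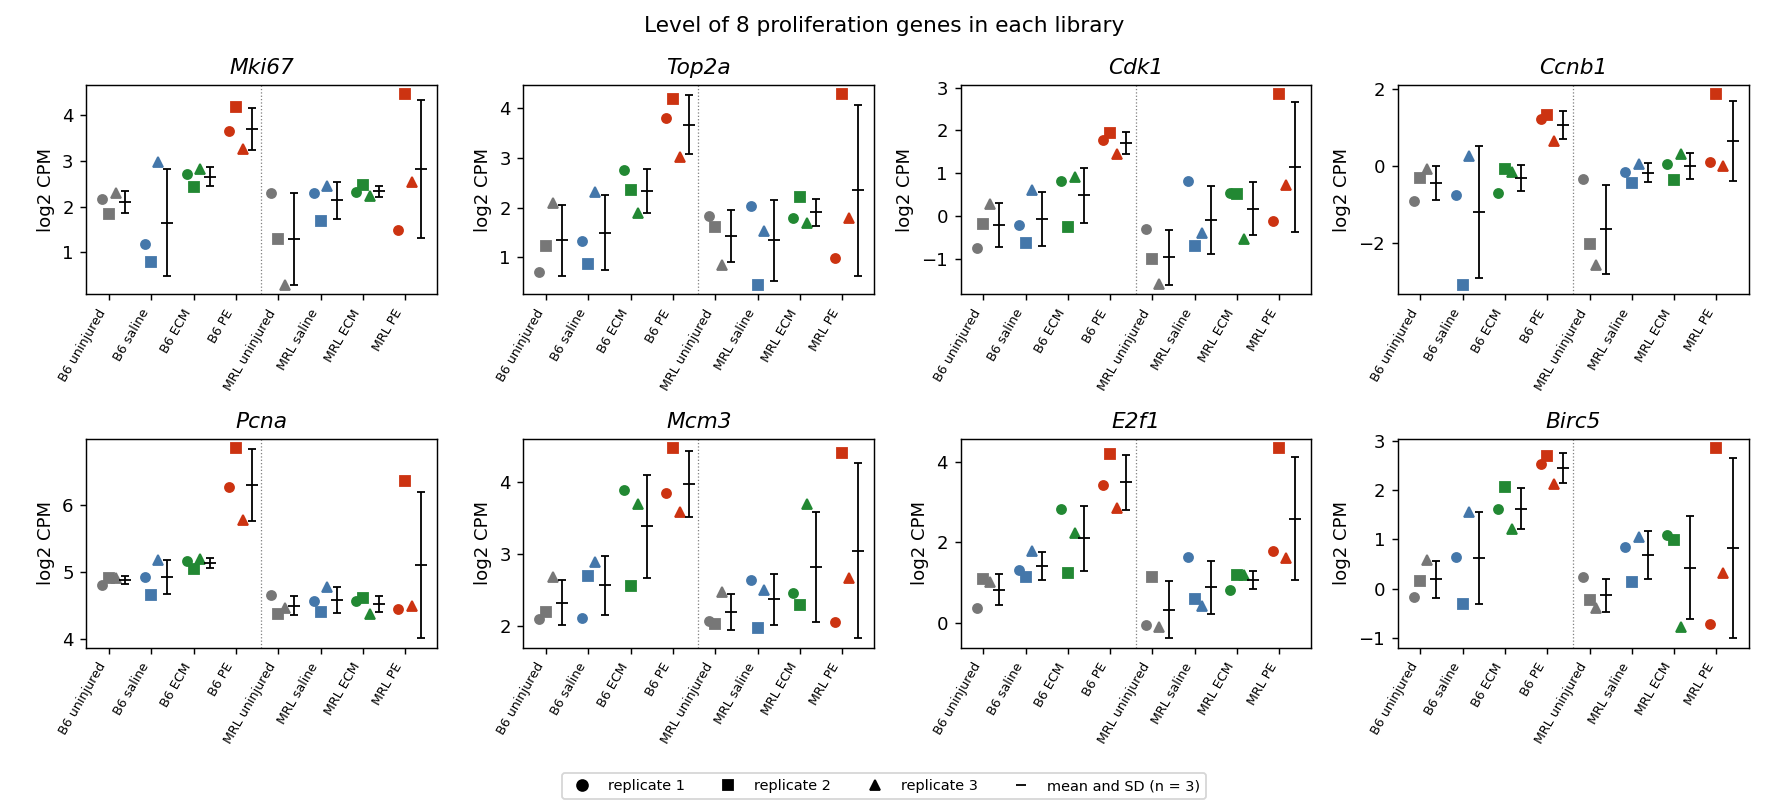
Points show log2 CPM of 8 genes in each library by group, with marker shapes for replicates and a bar for the mean and SD of 3 libraries. PE-treated B6 libraries were above the uninjured B6 libraries in all 8 panels, and the second PE-treated MRL library (square) was far above its group.

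Between PE and the saline injury in B6 mice, 3 genes (6.82%) were called, all higher after PE. Pcna had a log2FC of 1.37 (SE 0.35), E2f1 2.09 (SE 0.59) and Tpx2, a spindle assembly factor, 1.42 (SE 0.39). Of all genes, 5.97% were called and 5.37% were called higher, shares close to that of the members. Mki67 at 2.05 had an adjusted p of 0.0541 (limma), and the median over the 44 genes was 1.07. Of the members 21 had an unadjusted p under 0.05, against 3563 of all 14159 genes, a smaller share. With the second PE-treated MRL library out of the shared fit, 16 members were called, and the share of all genes in that fit is not given here. The count was 0 without the first or the second PE-treated library or without any one of the saline-treated libraries. It was 7 without the third PE-treated library. This comparison shares its PE libraries with the one against uninjured muscle.

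Saline and ECM gave no calls in B6 mice. After saline, limma called 0 genes, the median log2FC was 0.02, and 0% of all genes were called. Of the members 0 had an unadjusted p under 0.05, against 1751 of all 14159 genes. After ECM it called 0 genes, 5 had an unadjusted p under 0.05, the median log2FC was 0.32, and 0.424% of all genes were called. Those 5 were Mcm3, Tyms, E2f1 and Birc5, with log2FC of 1.06, 0.73, 1.28 and 1.44, and Ccne2, with -0.79. All ECM libraries were above all uninjured libraries for 9 genes, which held for 17.7% of all genes. In the mean of the 3 injuries 0 were called by limma, and 5.38% of all genes were called. Of the members 8 had an unadjusted p under 0.05, against 4252 of all genes, a larger share. Between ECM and PE 0 were called by limma, the median was -0.84, and 0.226% of all genes were called. An unadjusted p under 0.05 was found for 9 members and 2911 of all genes, shares close to each other. Between ECM and saline 0 were called by limma, and 0.0283% of all genes were called. Here 2 members and 565 of all genes had an unadjusted p under 0.05, again close shares.

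In MRL mice, 5 genes rose after PE against uninjured muscle, and no call remained when any 1 of 3 particular libraries, named below, was left out. E2f1, Ccnb1, Cdk1, Hmmr and Anln had log2FC of 2.26, 2.30, 2.11, 2.17 and 2.41, and 9.73% of all genes were called, 5.95% higher, against 11.4% of the members. The median log2FC over the 44 genes was 0.95. Without the second PE library 0 were called, the median was 0.32, and the log2FC of E2f1, Ccnb1, Cdk1, Hmmr and Anln were 1.38, 1.70, 1.26, 1.39 and 1.95. The count was also 0 without the first or the third uninjured library, 2 without the second, 14 without the first PE library and 8 without the third.

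Single libraries show the split. Mki67 was 2.30, 1.29 and 0.29 log2 CPM in uninjured MRL libraries and 1.48, 4.46 and 2.54 log2 CPM after PE. Top2a was 1.83, 1.62 and 0.85 log2 CPM in uninjured and 0.98, 4.27 and 1.79 log2 CPM in PE-treated libraries, so the first and the third lay within the uninjured range. Its log2FC of 0.92 became -0.05 without the second library, and that of Pcna went from 0.60 to -0.02. Cdk1, between -1.58 and -0.30 log2 CPM in uninjured libraries and at -0.12, 2.84 and 0.72 log2 CPM in PE-treated ones, did not overlap. Anln, at -0.47, 0.25 and -0.90 log2 CPM in uninjured and 1.73, 2.95 and 1.43 log2 CPM after PE, was high in every PE library. Such separation held for 6 of the 44 genes and for 18.9% of all genes.

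**Figure D3:**
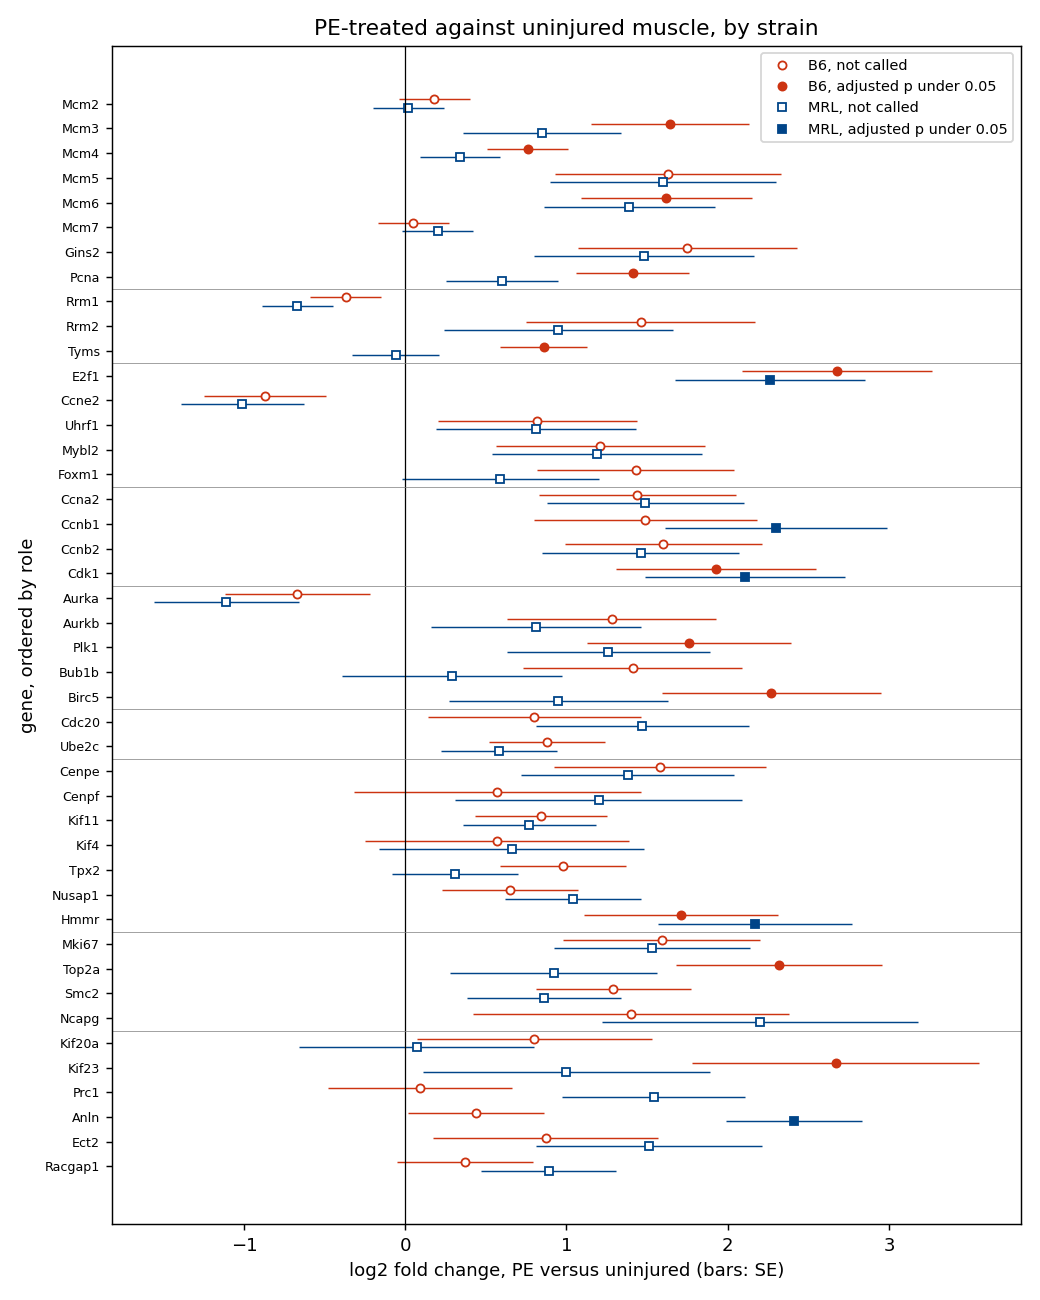
Points show the log2FC of PE-treated against uninjured muscle for the 44 genes in B6 (circles) and MRL (squares) mice, with SE as bars and filled points for calls. Most points were above 0, and Aurka, Ccne2 and Rrm1 were below 0 in both strains.

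The other MRL comparisons gave no calls. After saline limma called 0 genes, 4 had an unadjusted p under 0.05, and the median was 0.55, with 0% of all genes called. After ECM limma called 0, and the median was 0.44, with 0.0141% of all genes called. Here 2 members and 538 of all genes had an unadjusted p under 0.05, shares close to each other. In the mean of the 3 injuries limma called 0, and 0% of all genes were called. Of the members 13 had an unadjusted p under 0.05, against 1394 of all genes. Limma also called 0 between ECM and PE (0% of all genes called), PE and saline (0%) and ECM and saline (0.00706%). An unadjusted p under 0.05 was found for 6, 4 and 2 members, in that order. Among all genes it was found for 4022, 3298 and 503. The members' share was the smaller one for ECM against PE and for PE against saline.

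Markers of some other cells rose with these genes, and those of others fell. The 8 macrophage and monocyte markers in the table summed to 90.5 to 123 CPM in uninjured B6 mice and to 983, 1880 and 607 CPM after PE, where 7 of the 8 were called higher. It summed to 648, 169 and 398 CPM after ECM and to 190, 196 and 179 CPM after saline in B6 mice. In PE-treated MRL mice the sums were 180, 1510 and 162 CPM, so the library with high proliferation genes was also the one with high macrophage markers. Itgam in these libraries was 3.14, 8.67 and 3.25 log2 CPM, and uninjured MRL libraries were at 2.83, 3.33 and 1.96 log2 CPM. The split was not particular to macrophage markers. The 6 fibroblast and progenitor markers summed to 2080, 12700 and 1510 CPM in PE-treated MRL mice and to 882 to 1430 CPM in uninjured ones. In B6 mice they summed to 4510, 7570 and 4170 CPM after PE and to 955 to 1400 CPM in uninjured muscle. In PE-treated B6 mice all 4 neutrophil markers, 4 of 8 satellite cell and myoblast markers, 3 of 6 fibroblast markers and 2 of 6 T and NK cell markers were called higher. Called lower were 4 of 5 endothelial, 3 of 5 bone marrow and erythroid, 1 of 5 adipocyte and 1 of 8 muscle fibre markers. The summed satellite cell and myoblast level was not higher, at 2280, 1130 and 2650 CPM after PE and 2810, 2050 and 2730 CPM in uninjured B6 libraries. In PE-treated MRL mice 4 macrophage, 1 fibroblast and 2 T and NK cell markers were called higher, and without the second library 0 of each, with a median log2FC of 1.23 for the macrophage markers where it had been 2.00. The muscle fibre list was 57900 to 124000 CPM after PE in B6 mice and 132000, 33700 and 132000 CPM in MRL mice. In uninjured muscle it was 146000 to 192000 CPM in B6 and 160000 to 217000 CPM in MRL mice. Further lists were lowest in the second library among PE-treated MRL mice. There adipocyte markers summed to 2530, 171 and 1470 CPM and endothelial markers to 381, 193 and 336 CPM. Bone marrow and erythroid markers summed to 2570, 347 and 867 CPM. The part of these cells in the result was not tested.

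**Figure D4:**
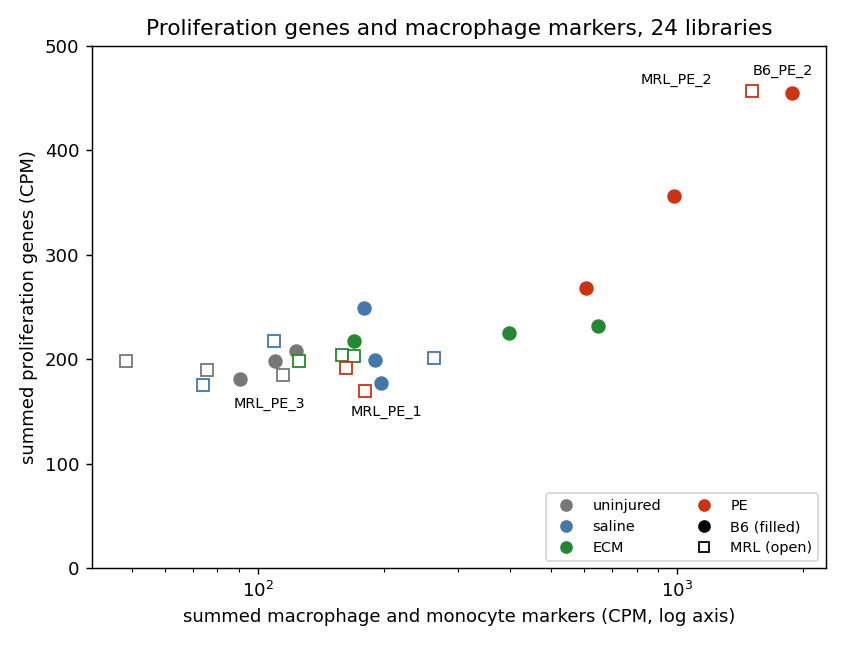
Each point is a library, with the summed macrophage and monocyte markers in CPM on a log axis and the summed proliferation genes in CPM on a linear axis. The 4 libraries with the highest marker sums among PE-treated mice, 3 of B6 and 1 of MRL, hold the 4 highest proliferation sums. The match was looser over all libraries. The first ECM-treated B6 library had a marker sum of 648 CPM, above the 607 CPM of the third PE-treated one, but proliferation sums were 232 and 268 CPM. The third saline-treated B6 library had a proliferation sum of 249 CPM with markers at 179 CPM.

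A list of other cell cycle genes, 91 of them in the table, gave 22 higher and 2 lower calls in PE-treated against uninjured B6 mice. Their median log2FC was 0.99. This was 26.4% called and 24.2% higher, against the 24.8% and 14.7% of all genes, and 38 higher and 2 lower with the second PE-treated MRL library out of the shared fit. Of 41 other mitotic genes 9 were higher, among them Spc25 of the kinetochore (2.04) and the kinase Nek2 (2.05). Of 17 G1 regulators 8 were higher, among them E2f8 (2.36) and Cdk6 (2.23), and 1 lower, Rbl2 (-0.49), a pocket protein of resting cells. Of 26 replication genes Cdt1 (2.59), Rfc5 and Gins1 were higher and Rfc4 lower. The shares of replication genes called and called higher were below those of all genes. Of 7 inhibitors of cyclin-dependent kinases 2 rose, Cdkn1a (2.28) and Cdkn1c (2.05). Cdkn1a was also high after saline in 2 of 3 B6 libraries, at 8.88, 4.81 and 8.87 log2 CPM. In PE-treated MRL mice 7 of the 91 were higher (7.69%, against 5.95% of all genes) and 3 lower, and Orc1, which helps load the helicase, had the highest log2FC, 2.75. Without the second PE-treated MRL library 0 of the 91 were called, their median went from 0.79 to 0.26, and the log2FC of Orc1 was 2.17. After saline and ECM limma called 0 of the 91 in either strain. After saline and ECM, 5 and 13 had an unadjusted p under 0.05 in B6 mice, and 2 and 3 in MRL mice. Of all 14159 genes, 1751 and 2372 did in B6 mice and 439 and 538 in MRL mice, larger shares each time.

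The strains differed in a few single genes. In uninjured muscle, Aurka was higher and Prc1 and Anln were lower in MRL than in B6 mice, and 2.6% of all genes were called. Aurka (chr2:172198109-172212849, minus strand, GRCm39) was 2.52, 1.83 and 2.96 log2 CPM in uninjured B6 libraries and 3.93, 4.49 and 4.85 log2 CPM in uninjured MRL libraries. The groups did not overlap, and the log2FC was 1.99 (SE 0.45, adjusted p = 0.0171 by limma). Prc1 (chr7:79944168-79966011, plus strand), a crosslinker of the central spindle, was 2.49, 1.66 and 3.09 log2 CPM in B6 and 0.14, -0.85 and -0.83 log2 CPM in MRL libraries, with a log2FC of -2.93 (SE 0.57). Anln (chr9:22242402-22300501, minus strand) had a log2FC of -1.99 (SE 0.42). Without the third uninjured MRL library the count was 1.

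After injury the same genes were followed. After saline 1 gene was called, Prc1 (-3.17), with 2.51% of all genes called, and Aurka had a log2FC of 1.30. After ECM 1 was called, Aurka (2.33), with 2.66% of all genes called, and Prc1 had a log2FC of -1.90. Anln had log2FC of -0.75 after saline, -1.58 after ECM and -0.02 after PE, and none of these was called. After saline the count was 2 without the second or the third B6 library, and after ECM it was 2 without the third MRL library. After PE limma called 0, with 3.35% of all genes called. An unadjusted p under 0.05 was found for 4 members and 2709 of all genes, a larger share. Without the second PE-treated MRL library 15 were called after PE, with a median log2FC of -1.15 where it had been -0.58. The share of all genes called without it is not given here. Aurka was 4.05, 2.17 and 3.71 log2 CPM in PE-treated MRL libraries and Prc1 0.76, 2.27 and 0.05 log2 CPM, so the second library lay toward the B6 levels in both genes.

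Over the mean of the 3 injuries 4 genes were called, with 14.5% of all genes called. Aurka had a log2FC of 1.72, Prc1 -2.18, Pcna -0.71 and Anln -0.78. Without the second PE-treated MRL library 14 were called, and without the first or the third 2, with no share of all genes given for these fits. Pttg1, the securin that restrains separase until anaphase, had the largest strain difference of the other cell cycle genes in uninjured muscle, with a log2FC of -4.86 (SE 0.39). Reads of MRL mice were assigned with a B6-based reference transcriptome, and the effect of strain variants on these levels was not tested. Prc1 has a processed pseudogene with 93.3% identity, and no such copy was found for Aurka or Anln. Of the 44 genes, 18 had a pseudogene copy of at least 90% identity, Mki67, Ccnb1, Pcna and Rrm2 among them, and Ccna2, Ccne2, Gins2 and Ncapg shared transcript sequence with an overlapping or neighbouring coding gene. Levels of these genes are uncertain to the extent that reads were split.

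**Figure D5:**
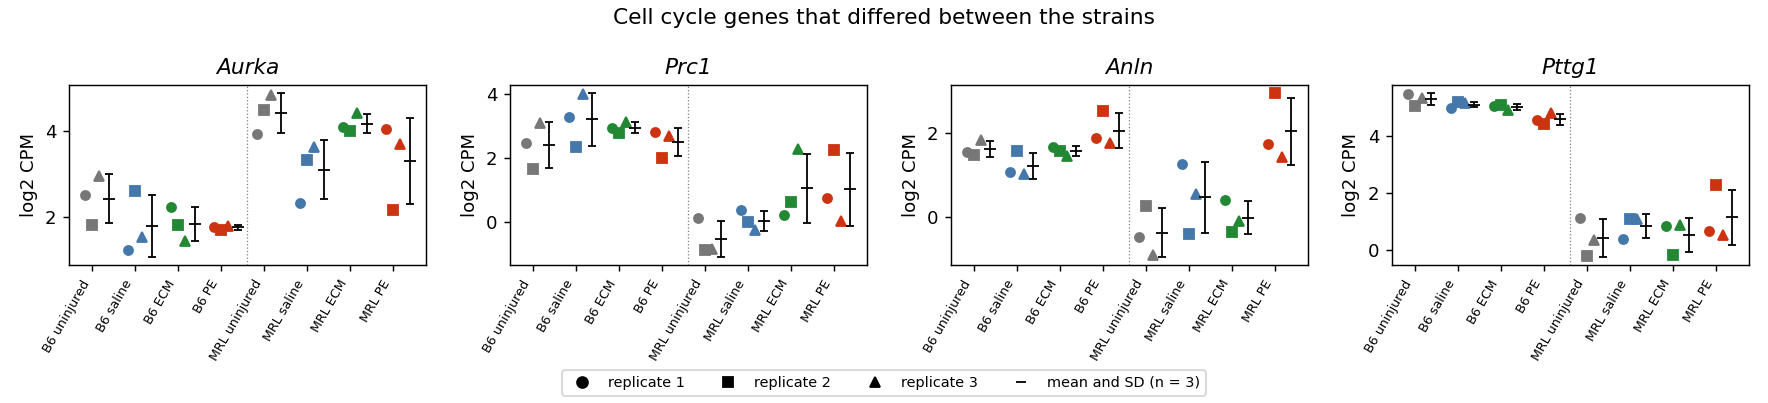
Points show log2 CPM of Aurka, Prc1, Anln and Pttg1 in each library by group, with marker shapes for replicates and a bar for the mean and SD of 3 libraries. Uninjured MRL libraries were above uninjured B6 libraries in Aurka and below them in the other genes, and the second PE-treated MRL library (square) was nearest to B6 in Aurka, Prc1 and Pttg1 among PE-treated MRL mice.

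The response to injury was compared between strains as the MRL change minus the B6 change. By limma 0 of the 44 genes were called for saline, ECM, PE or the mean of the injuries. Of all genes 0%, 0.00706%, 0.0212% and 0% were called, in that order. An unadjusted p under 0.05 was found for 2, 1, 2 and 1 members. Among all 14159 genes it was found for 570, 512, 1652 and 1037. The members' share was the smaller one for ECM, PE and the mean. The median difference for PE was -0.18. Without the second PE-treated MRL library 3 of the 44 genes were called, with no share of all genes given, and the median was -0.72. Anln had the largest difference for PE, 1.97 (SE 0.60, adjusted p = 0.297 by limma). After PE its log2FC between the strains was -0.02.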

How the data were processed

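RNA of 24 quadriceps samples was measured by bulk RNA sequencing. Per the study's methods, the authors assigned reads to the Ensembl GRCm39 transcripts with kallisto, summed them to genes with tximport (lengthScaledTPM), kept genes above 1 CPM in at least 3 libraries, scaled them by edgeR's TMM and deposited log2 CPM values. Of the deposited rows, 1 had no gene name and was left out. The lowest value, -3.65, stands for a count of 0. From the prior count of 2, the mean effective library size was 25149682 reads, and 3 counts came to 0.119 CPM. Linear CPM was recovered by subtracting the prior.

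Groups were taken from the labels. The log2 CPM values were compared with limma 3.58.1 in R 4.3.3, with 1 coefficient per group over all 24 libraries (16 residual degrees of freedom), a variance trend and Benjamini-Hochberg adjustment over 14159 genes, in 23 comparisons. Calls were made at adjusted p values under 0.05. The study describes the libraries as independent samples. In simulated data for PE-treated against uninjured B6 mice, 200 of 14159 genes were changed, with the same spread in all groups. Of changes of 1.5 on the log2 scale 60% were recovered, and of changes of 3, 83%, with 7 false calls. The real comparison called 24.8% of all genes, so these rates do not carry over to it. The members, lists and comparisons were chosen with earlier results of these data known. Values by library were given for 12 representative genes, the 3 called genes with the smallest adjusted p and the 3 furthest up and down in a comparison, and other genes that are discussed were chosen after their values were seen. Replicate numbers were checked for pairing by the correlation of deviations from the group means. All 3 were over 0.1 for PE-treated MRL against B6 mice (0.105, 0.532 and 0.439) and for no other comparison. Copies were searched with BLAST 2.17.0 (at least 90% identity over 50% of the shorter transcript, GENCODE vM39), and promoters were read from GRCm39. Alternatives were log2(CPM + 1), a mean log2 CPM of at least 1, compared groups alone, library weights by the gene-by-gene method, equal totals, a replicate block, each library left out, and, chosen after seeing the data, the second PE-treated MRL library left out of every fit. The copy search kept pseudogenes and coding genes, since other matches were short repeats.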

Additional observations from a re-analysis of the deposited data

How the results depend on the processing

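The number of libraries per group, 3, limits every count, and the second library of PE-treated MRL mice decides several. Shares of all genes called are given for the main fit only. The member counts of the other settings are therefore not set against a background, and a change in them may not be particular to the members. For PE-treated against uninjured B6 mice the count of 12 genes became 7 (of 25 tested) with genes of a mean log2 CPM under 1 left out, 23 with the compared groups alone, 33 with library weights, 20 with equal totals and 21 with that library out, and 0 to 11 when each library was left out. The weights ran from 0.0939 for the second PE-treated MRL library to 5.93 for the first PE-treated B6 library, so counts with weights lean on the latter. Equal totals moved the median of all genes in the comparison of PE-treated with uninjured B6 mice from 0.02 to 0.43. That of the members moved from 1.28 to 1.68. For PE against saline in B6 mice the count of 3 became 6 with log2(CPM + 1), 28 with weights and 16 with that library out, and 0 to 7 when each was left out. For PE against uninjured MRL mice the 5 became 3 with the mean log2 CPM filter, 0 with the compared groups alone and 1 with the replicate block, and 0 to 14 when each was left out.

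Library weights gave 1 gene for saline against uninjured and 3 for ECM against uninjured in B6 mice, 15 for ECM against PE in B6 mice (4 with that library out), 15 for the mean of the B6 injuries (2 with the compared groups alone, 5 with that library out, 0 to 2 when each was left out), 3 for PE against saline in MRL mice (0 to 1 when each was left out), 5 for MRL against B6 mice after saline (1 to 2), 4 after ECM (3 with that library out, 1 to 2), 26 after PE (1 with equal totals, 0 to 15), 19 over the mean of the injuries (2 with the compared groups alone, 2 to 14) and 7 for the difference in the PE response (0 to 3). For ECM against PE in MRL mice, which had 0, the count was 1 with the filter, 1 with equal totals, 1 with the replicate block and 2 with weights, and 0 to 2 when each was left out. For MRL against B6 uninjured mice it was 1 to 3. The replicate block changed no other count by over 1.5 times, and only the PE-treated strains passed the 0.1 threshold of the pairing check. The labels name no pairing. Directions reversed in 3 cases: Rrm1 in PE-treated B6 mice with equal totals (0.04), and Top2a (-0.05) and Pcna (-0.02) in PE-treated MRL mice without that library. Leaving out each library gave -0.05 to 1.60 for Top2a and -0.02 to 0.93 for Pcna. The cause of the other changes was not tested.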
